A study of Mus musculus with 6 samples.

Results

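The transcripts described here are those of 35 genes that hepatocytes are known for, taken by gene symbol from a table of 55401 genes. All 35 had a row. They were measured by RNA sequencing of bEnd.3, a mouse brain endothelial cell line labelled wild type, in 6 libraries. For the 3 mitochondria libraries, mitochondria taken from MLO-Y4, an osteocyte-like mouse line, had been added in 100 ul of medium, and the cells were collected after 24 h. In the 3 control libraries they had received the same volume of medium alone. Both groups are the same line in the same culture medium with serum, and the labels do not say whether replicates are separate cultures, so any p-value measures only the spread between these libraries, which may be technical. The members were picked because albumin (Alb) and its companions were known to differ from library to library, so their counts chose them and are given here as a description, with no test.

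Hepatocytes make most proteins of blood plasma: albumin and other carriers, apolipoproteins of lipoprotein particles, clotting factors and protease inhibitors. They also hold the enzymes of the urea cycle, of amino acid breakdown and of drug oxidation. Many of these genes are switched on together by liver-enriched transcription factors such as HNF1, HNF4 and C/EBP. Some plasma protein genes, transferrin (Trf) among them, are also active in other cell types.

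Library totals ran from 65394770 to 70407728 estimated counts in the mitochondria libraries and from 65593638 to 73376834 in the control libraries, with 22452 to 22815 and 22468 to 22875 genes above 0. The counts are estimates, and how many stand for 1 sequenced fragment is not stated. An excess of multiples of 4 among low counts led to an assumed scale of 4 counts per fragment, on which the intervals, and a floor of 12 counts for 3 fragments, rest. The reads carry no molecular identifiers, and every interval and floor below covers counting error only. Mitochondria replicate 1, the library that matters most below, had 70407728 counts, 22513 genes above 0 and a TMM scaling factor of 1.002, all inside the range of the other libraries. Of 20 endothelial marker genes fixed for a check of the label, 13 stayed under 1 FPKM in all 6 libraries, among them Pecam1 at 0.138 to 0.201 FPKM, and Cldn5 had a count of 0 throughout. Eng, at 58.3 to 78.3 FPKM, and Flt1, at 21.8 to 36.3 FPKM, were well expressed.

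Most of the hepatocyte transcripts were almost missing from 1 library. Alb, the main protein of plasma (chromosome 5, 90460897 to 90476602 in GRCm38), had 9, 1314 and 832 counts in mitochondria replicates 1, 2 and 3, against 1092, 1835 and 1418 in control replicates 1, 2 and 3. Mitochondria replicate 1 thus stood alone, and mitochondria replicate 2 lay inside the range of the controls. As CPM, counts scaled to library size with TMM factors, Alb was at 0.128, 18.9 and 12.6 in the mitochondria libraries and at 15.3, 25.1 and 21.7 in the control libraries. Between mitochondria replicate 1 and the next lowest library, mitochondria replicate 3, Alb differed 99-fold in CPM. The exact 95% counting interval of this fold is 30.5 to 926 with counts divided by 4 and rounded to whole fragments, and 51.9 to 217 if each count is a fragment.

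To sort the other members, the CPM of each in mitochondria replicate 1 was divided by its lowest CPM in the other 5 libraries. A ratio under 0.2 is called a dip here, and a ratio of at least 0.5 no dip. Of the 35 members 27 had the dip, 2 lay between the thresholds and 4 had no dip. The hepcidin gene Hamp could not be sorted because mitochondria replicate 2 was also at 0, and Apoa4, with counts in 2 libraries, was under the minimum of 80 counts over the 6 libraries. The dip occurred in 115 of 17934 genes of the whole table with at least 80 counts, 0.641%. With a minimum of 200 counts it occurred in 52 of 15827 genes, 0.329%, of which 27 were the members. Since the members were chosen with these libraries known, nothing is read from their share. Serpina3k, at a ratio of 0.107, and Plg, at 0.104, were nearest the threshold from inside, and Kng1, at 0.239, and Hpx, at 0.346, from outside. Of the 27 members with the dip, 19 had a count of 0 in mitochondria replicate 1, 7 had 4 to 11 counts and Serpina3k had 19. Counting error leaves a fall short of the 0.2 threshold possible for part of the 27. Against the count floor, falls were bounded only at 1.27-fold to 4.66-fold for Cyp3a11, Cps1, Tat, F2, Fgg, Fabp1, Apoc3, Vtn and Rbp4. The rest at 0 had bounds of 5.82-fold (Ahsg) to 19.6-fold (Apoa2). On counts divided by 4, fold intervals began at 1.34 to 3.19 for Plg, Apoh, Fga, Ambp and Gc. They began at 8.22 for Apoa1 and 30.5 for Alb. The summed level of the 27 was 0.893, 58.8 and 52.2 CPM in the mitochondria libraries and 65.9, 86.1 and 73.9 CPM in the control libraries. It was lower in each mitochondria library than in every control library, by far the most in mitochondria replicate 1. In bulk RNA fewer cells of a type and less RNA per cell cannot be told apart. Whether any cells of the hepatocyte type were present here was not tested.

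**Figure D1:**
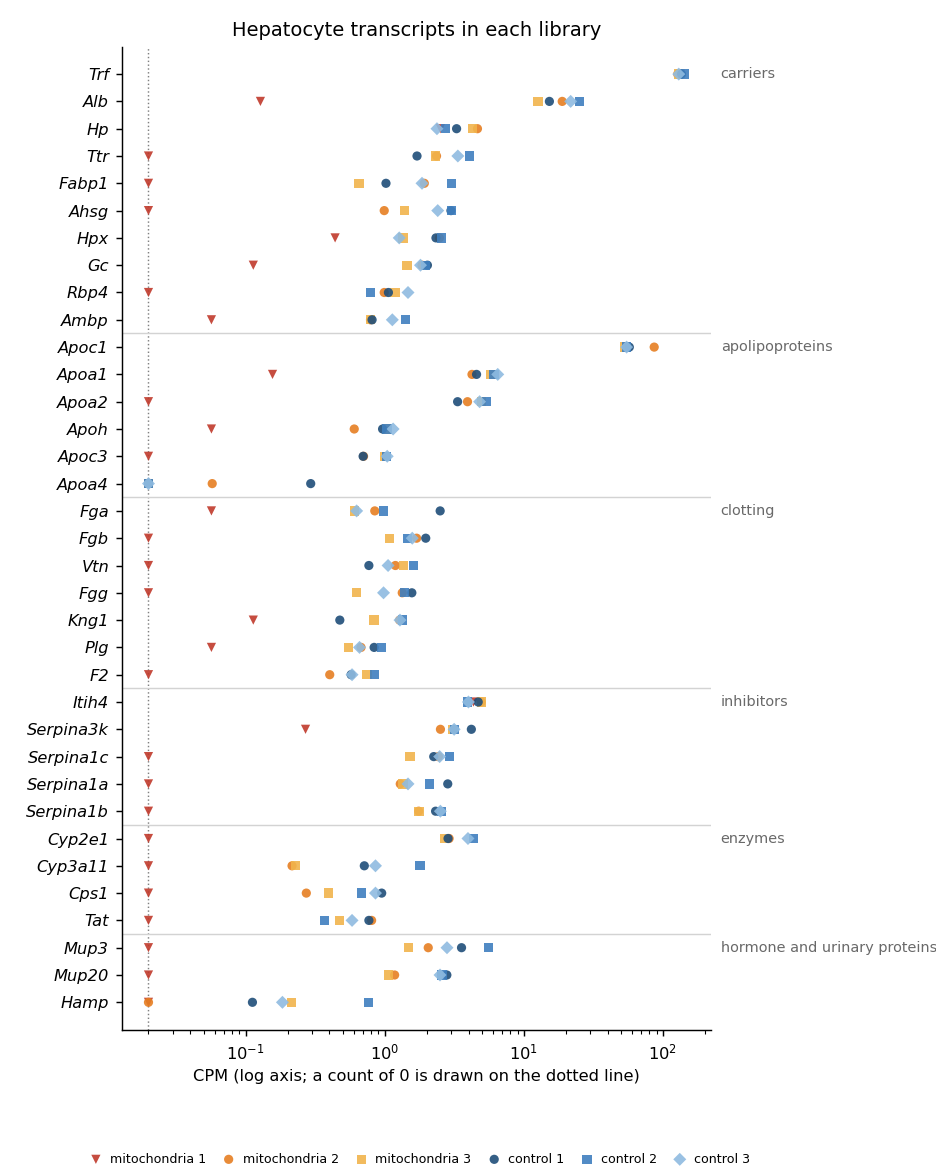
CPM (log axis) of each of the 35 hepatocyte transcripts in each library, 1 row a gene, grouped by role; counts of 0 are drawn on the dotted line. Red triangles, mitochondria replicate 1, lie far left of the other 5 libraries for 27 genes, while for Trf, Apoc1, Hp and Itih4 mitochondria replicate 1 lies among the others.

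The promoters of 25 of the members matched a RefSeq table of GRCm38.p6 that gives 250 bases before and 50 bases after each gene's start. They are shown because HNF1 is the textbook regulator of several of the members with the dip. Whether it had any part in the dip was not tested. Of 21 matched members with the dip, 10 held the HNF1 half-site GTTAAT on either strand, namely Alb, Fga, Fgb, Gc, Vtn, Fabp1, Serpina1a, Serpina1b, Serpina1c and F2. Of all genes in that table, 27025, 8.24% held it, and of all 32851 promoters 7.1%. The C/EBP core TTGCNNAA was in 9 of the 21, against 12.2% of all genes, and TATAAA in 6 of the 21, against 15.7%. These 3 motifs were counted separately, and a match is a run of letters and no proof of binding. Below, capitals mark GTTAAT. The Alb window is chr5:90460620-90460919 on the plus strand and the Serpina1c window chr12:103904901-103905200 on the minus strand. The Itih4 window, chr14:30886226-30886525 on the plus strand, belongs to the only member with no dip that matched and holds no GTTAAT. Among the further liver genes described below, 6 of 19 matched with the dip and 6 of 51 with no dip, Afp among them, held GTTAAT. The C/EBP core was in 6 of the 19 and 18 of the 51, and TATAAA in 7 of the 19 and 10 of the 51.
Alb: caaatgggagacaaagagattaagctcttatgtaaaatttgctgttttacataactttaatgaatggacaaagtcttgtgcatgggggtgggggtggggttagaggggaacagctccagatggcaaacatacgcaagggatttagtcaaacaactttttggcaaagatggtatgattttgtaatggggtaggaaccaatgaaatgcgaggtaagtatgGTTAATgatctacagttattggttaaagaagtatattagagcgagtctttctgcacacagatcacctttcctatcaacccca
Serpina1c: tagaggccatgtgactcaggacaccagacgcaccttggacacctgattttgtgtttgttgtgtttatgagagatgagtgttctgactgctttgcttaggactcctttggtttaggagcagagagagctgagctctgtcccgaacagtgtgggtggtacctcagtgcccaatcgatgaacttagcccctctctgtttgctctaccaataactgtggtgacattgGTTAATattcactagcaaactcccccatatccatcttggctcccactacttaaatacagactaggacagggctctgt
Itih4: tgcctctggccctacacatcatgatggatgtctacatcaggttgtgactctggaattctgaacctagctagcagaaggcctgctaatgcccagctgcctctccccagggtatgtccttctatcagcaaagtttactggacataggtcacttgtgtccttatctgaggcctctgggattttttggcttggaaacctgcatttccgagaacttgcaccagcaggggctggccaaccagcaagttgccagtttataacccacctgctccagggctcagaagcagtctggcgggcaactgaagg
In Alb the half-site began 32 bases, and in Serpina1c 27 bases, before the start used in the RefSeq table, which in both genes lies upstream of the gene start in the deposited table.

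Among the carriers, Ttr, the transporter of thyroxine and of the retinol-binding protein, had 0, 164 and 152 counts in the mitochondria libraries and 122, 299 and 219 in the control libraries. Rbp4, the retinol-binding protein itself, had 0, 69 and 78 counts with mitochondria and 76, 58 and 96 in controls. In both genes mitochondria replicates 2 and 3 overlapped the controls and replicate 1 did not. Gc, which carries vitamin D, had 8, 129 and 95 counts with mitochondria and 145, 143 and 118 in controls. Fabp1, the fatty acid binding protein of the liver cytosol, had 0, 134 and 43 counts against 73, 221 and 121. Its 5 libraries other than mitochondria replicate 1 were spread widely, from 0.653 to 3.02 CPM. The fetuin gene Ahsg had 0, 69 and 91 counts with mitochondria and 214, 220 and 157 in controls, and Ambp, the precursor of alpha-1-microglobulin and bikunin, had 4, 55 and 52 against 58, 103 and 74. For Ahsg and Ambp every mitochondria library was below every control library on the CPM scale.

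The apolipoproteins split. Apoa1, the main protein of high-density lipoprotein (chromosome 9, 46228580 to 46230466), had 11, 295 and 381 counts in the mitochondria libraries and 327, 446 and 424 in the control libraries. Apoa2, the next most abundant protein of the same particles, had 0, 274 and 328 counts against 239, 394 and 314. Against a floor of 12 counts Apoa2 was at least 19.6-fold lower in mitochondria replicate 1 than in its next lowest library, control replicate 1. Apoc3, an inhibitor of lipoprotein lipase that lies beside Apoa1 on chromosome 9, had 0, 49 and 66 counts with mitochondria and 50, 75 and 68 in controls. Apoh, beta-2-glycoprotein I, had 4, 42 and 68 counts against 69, 76 and 75. All 4 had the dip. Apoa4, the third gene of the chromosome 9 cluster and also an intestinal product, had 0, 4 and 0 counts with mitochondria and 21, 0 and 0 in controls, too few to place. Apoc1, a small lipoprotein component also made by macrophages, did not follow them at all and is described with Trf below.

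The 3 fibrinogen chains, which lie together on chromosome 3, all had the dip but differed among the other libraries. Fgb, the beta chain, had 0, 118 and 71 counts with mitochondria and 141, 107 and 103 in controls, and Fgg, the gamma chain, had 0, 93 and 41 against 112, 102 and 64. Fga, the alpha chain, had 4, 59 and 40 counts with mitochondria and 179, 72 and 41 in controls, so that control replicate 1 stood above the rest for this chain. Prothrombin (F2) had 0, 28 and 49 counts against 41, 62 and 38, and plasminogen (Plg) 4, 47 and 36 against 60, 69 and 43. Vitronectin (Vtn), an adhesive plasma protein, had 0, 83 and 90 counts against 55, 118 and 69. For all 3 of these genes mitochondria replicates 2 and 3 overlapped the controls. The kininogen gene Kng1 had 8, 89 and 55 counts with mitochondria and 34, 98 and 84 in controls. Control replicate 1 was the lowest of the other 5 libraries, and Kng1 had the dip when that library was left out. The gap between control replicate 1 and mitochondria replicate 1 was 4.19-fold in CPM, with a counting interval of 0.787 to 38.1 on counts divided by 4 and of 1.9 to 10.5 on the counts themselves.

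The alpha-1-antitrypsin genes Serpina1a, Serpina1b and Serpina1c, inhibitors of neutrophil elastase, each had a count of 0 in mitochondria replicate 1. The other mitochondria libraries had 90 and 89 counts of Serpina1a, 122 and 116 of Serpina1b and 169 and 100 of Serpina1c. Control libraries had 203, 154 and 96 counts of Serpina1a, 166, 186 and 164 of Serpina1b and 161, 214 and 162 of Serpina1c. These copies are alike: of all 100-base windows of the longest coding transcript, 49.9% in Serpina1a, 20.6% in Serpina1b and 58.5% in Serpina1c also occur in transcripts of other genes. Reads could therefore be split among them, and the values of the single genes are uncertain. Serpina3k, of the neighbouring antichymotrypsin cluster, had 19, 175 and 201 counts with mitochondria and 300, 231 and 206 in controls. It was the member with the dip that kept the most counts in mitochondria replicate 1 and overlaps Serpina3m, with which 4.85% of its windows are shared.

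The 4 enzymes of the hepatocyte interior also had the dip, each with a count of 0 in mitochondria replicate 1. Against the floor of 12 counts the fall was at least 15.8-fold for Cyp2e1. For Tat, Cps1 and Cyp3a11 it was bounded only at 2.17-fold, 1.6-fold and 1.27-fold. Cyp2e1, a cytochrome P450 that oxidises ethanol, had 0, 202 and 177 counts in the mitochondria libraries and 204, 317 and 259 in the control libraries. Cyp3a11, a major drug-oxidising P450, had 0, 15 and 15 counts against 51, 131 and 56. Cps1, the first enzyme of the urea cycle, had 0, 19 and 26 counts against 68, 50 and 56, and Tat, which breaks down tyrosine, had 0, 56 and 31 against 55, 27 and 38. Cyp3a11 and Cps1 were lower in every mitochondria library than in every control library, while for Cyp2e1 and Tat the groups overlapped. Mup3 and Mup20, of the major urinary protein genes that encode pheromone carriers of the mouse liver, were also lower in all 3 mitochondria libraries. Mup3 had 0, 143 and 97 counts with mitochondria and 255, 406 and 183 in controls, and Mup20 had 0, 82 and 70 against 200, 189 and 163. Of the windows of Mup20 38.8% are shared with the pseudogene Mup-ps19. Hamp, the iron-regulating hormone, had 0, 0 and 14 counts with mitochondria and 8, 56 and 12 in controls, and control replicate 2 held most of its counts.

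**Figure D2:**
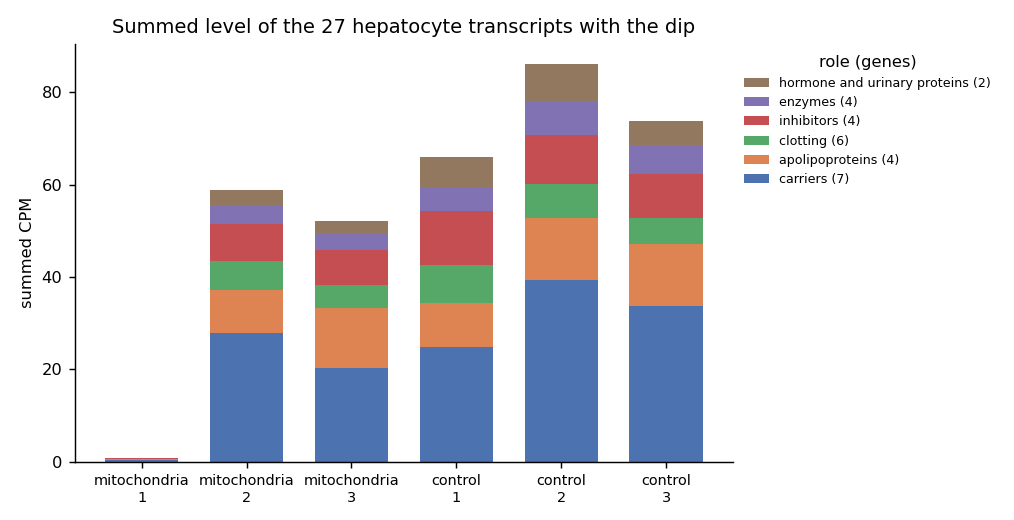
Summed CPM of the 27 members with the dip in each library, stacked by role, with the number of genes of each role in the legend. All roles are near 0 in mitochondria replicate 1, at 0.893 CPM in total, and the other libraries hold 52.2 to 86.1 CPM.

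Trf, Apoc1, Hp and Itih4 had no dip, with ratios of 1.03 to 1.10. Trf, the iron carrier of plasma (chromosome 9, 103204001 to 103230444), had 9390, 8895 and 8526 counts with mitochondria and 9734, 10469 and 8489 in controls. Its mean was 130.1 ± 2.75 CPM in mitochondria and 136.3 ± 6.55 CPM in control libraries (SD, n = 3 each), and the groups overlapped. On the scale per transcript length Trf stood at 35.1 ± 0.711 FPKM with mitochondria and 36.4 ± 1.69 FPKM in controls (SD, n = 3 each). Apoc1 (chromosome 7, 19689481 to 19692660) had 3822, 6025 and 3476 counts with mitochondria and 4102, 3994 and 3580 in controls. It was the highest member per length, at 77.6 ± 22.9 FPKM with mitochondria and 66.2 ± 1.76 FPKM in controls (SD, n = 3 each), with mitochondria replicate 2 above the other 5 libraries. Among annotated transcripts 77.3% of the windows of Trf are also in the predicted gene Gm20425, whose counts were not used here.

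Haptoglobin (Hp), which binds free haemoglobin, and Itih4, a heavy chain of the inter-alpha-trypsin inhibitor family, were much lower. Hp had 177, 323 and 281 counts with mitochondria and 235, 199 and 155 in controls, and Itih4 had 306, 344 and 328 against 336, 289 and 261. Per length Hp was at 2.12 ± 0.637 FPKM with mitochondria and 1.54 ± 0.253 FPKM in controls, and Itih4 at 1.15 ± 0.089 and 1.01 ± 0.101 FPKM (SD, n = 3 each). Alb and Apoa2, which had the dip, at 4.03 ± 3.65 and 4.95 ± 4.37 FPKM with mitochondria and 7.83 ± 1.89 and 7.43 ± 1.74 FPKM in controls (SD, n = 3 each), stood above Hp and Itih4. Hemopexin (Hpx), the haem carrier, lay between both kinds of gene. It had 31, 172 and 89 counts with mitochondria and 167, 188 and 83 in controls, lowest in mitochondria replicate 1 but well above 12 counts there.

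How closely the members followed Alb was read from their ratio to it in the 5 libraries with at least 40 counts of Alb, which leaves out mitochondria replicate 1, with exact 95% intervals on fragments. Of the 26 members with the dip other than Alb, the intervals of the 5 libraries shared a value in 15 and shared none in 11. This split depends on the number of counts, since sparse genes have wide intervals. Cps1, with 219 counts, shared a value though its ratio varied 4.3-fold. Apoa2, with 1549 counts, shared none though its ratio varied 1.89-fold. A shared value is therefore no measure of how closely a gene followed Alb. The ratio varied least in Serpina1c, 1.29-fold between libraries, and next least in Cyp2e1, 1.38-fold. Cyp2e1 had 15.4% and 21.3% of the Alb counts in mitochondria replicates 2 and 3, and 18.7%, 17.3% and 18.3% in the control libraries. Serpina1c had 12.9% and 12% with mitochondria and 14.7%, 11.7% and 11.4% in controls. Apoa2 had 39.4% of the Alb counts in mitochondria replicate 3, with an interval of 30.2% to 51.1%, but 20.9% in mitochondria replicate 2 and 21.5% to 22.1% in the controls. Apoa1 likewise had 45.8% in mitochondria replicate 3 and 22.5% in replicate 2, against 24.3% to 29.9% in the controls. Fga had 16.4% in control replicate 1, with an interval of 11.7% to 22.7%, against 2.89% to 4.81% in the 4 other libraries. Of the 26 members with the dip other than Alb, 14 had their highest ratio in control replicate 1, 10 in mitochondria replicate 3 and 2 in control replicate 2. Alb itself had its fewest counts of these 5 libraries in mitochondria replicate 3, 832, and the next fewest in control replicate 1, 1092. As the shared denominator it raises every ratio there, so these counts of members are not separate observations.

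Ahsg, Cyp3a11, Mup3 and Mup20 were lower relative to Alb in both of these mitochondria libraries than in every control library. Over all genes with at least 80 counts this held for 0.942%. That share is no matched background, since Alb itself was lower in mitochondria replicate 3 than in every control library and a gene at a steady level then has a higher ratio there. Mup3 stood at 10.9% and 11.7% of Alb with mitochondria and at 23.4%, 22.1% and 12.9% in controls, and Cyp3a11 at 1.14% and 1.8% against 4.67%, 7.14% and 3.95%. The other 22 overlapped. With the sum of the other members with the dip as the denominator, a choice made after the values were seen, Cps1 joined these 4 on the low side, and Apoa2 and Vtn lay above every control library. On the CPM scale itself, 9 of the 27 members with the dip, Ahsg, Ambp, Serpina1a, Serpina1b, Serpina3k, Cps1, Cyp3a11, Mup3 and Mup20, lay below every control library in mitochondria replicates 2 and 3. Over all genes with at least 80 counts this held for 14.3%. Mitochondria replicate 1 is left out of this count, since the dip places it below the controls.

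**Figure D3:**
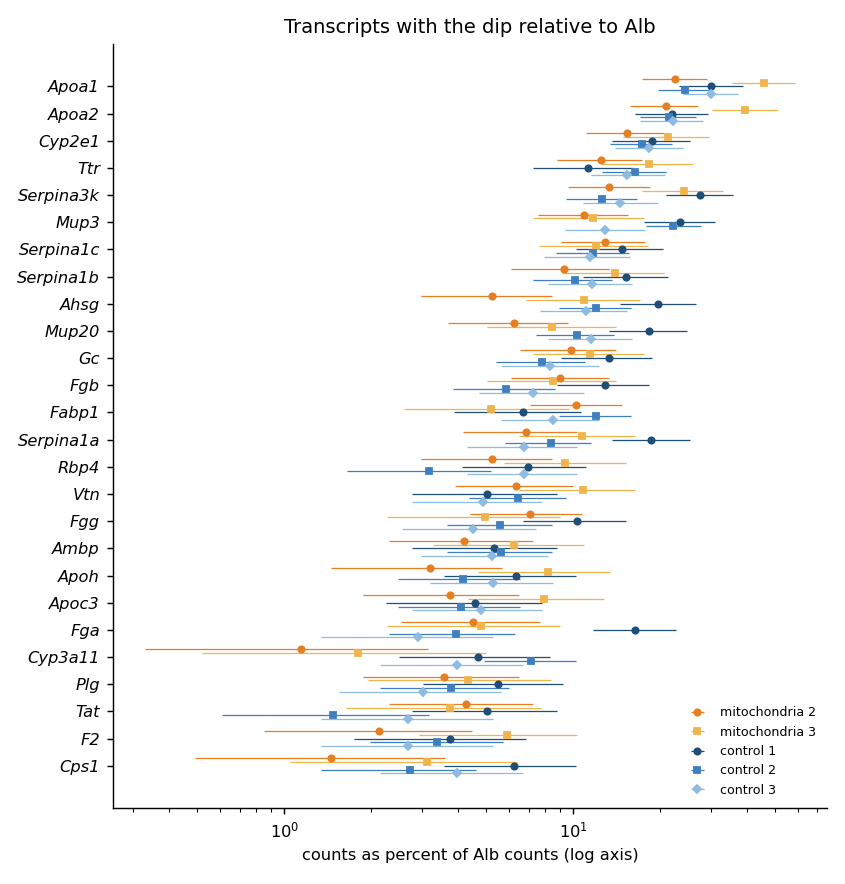
Counts of the 26 members with the dip other than Alb as a percentage of Alb counts (log axis) in mitochondria replicates 2 and 3 and the 3 control libraries; bars are exact 95% counting intervals. Cyp2e1 and Serpina1c lie close together in all 5 libraries, Apoa1 and Apoa2 lie apart in mitochondria replicate 3 and Fga in control replicate 1.

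Likeness to Alb was also measured over all 6 libraries and all genes. The CPM of a gene was divided by its sum over the libraries, and the distance is the summed absolute difference of these shares from those of Alb, scaled so that 0 is the same pattern and 1 shares no library. Among 15826 genes with at least 200 counts over the libraries the median distance was 0.208. Cyp2e1 (0.0383), Serpina1c (0.0388), Ambp (0.048) and Ttr (0.0716) were the 4 nearest genes. Next came Mat1a, which makes S-adenosylmethionine in liver (0.0719), a liver gene that is not a member. Of the 15 nearest, 9 were members, the rest of them Serpina1b, Apoa2, Plg, Kng1 and Apoc3, 2 were on the list of further liver genes described next and 4 were others. The 4 were Cd69, an early activation antigen of lymphocytes, Gm49356, Gm49493 and Gm4524. Nothing is read from these numbers, since the members and the list were chosen with earlier results of these libraries known. At this distance a match need not include the dip, for Cd69 had 32 counts in mitochondria replicate 1 and 42 in mitochondria replicate 3. Trf and Apoc1, at 0.2, lay close to the median of all genes, and Itih4 (0.222) and Hp (0.242) lay beyond it. So did Cyp3a11 (0.227) and Fga (0.291), which had the dip.

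A list of 153 further liver genes, none of them a member, was then read in the same way, and 152 had a row. Of 97 with at least 80 counts, 29 had the dip, 63 had none, 0 lay between and 5 could not be sorted. Among the 10 most abundant with the dip were Serpina1e, Bhmt, Pck1, Cdo1, Serpina1d, Ces3a, Uox, Hpd and Ces1c. Pck1, the gatekeeper of glucose synthesis, had 0, 75 and 78 counts with mitochondria and 36, 81 and 68 in controls, and Uox, the urate oxidase, 4, 63 and 51 against 39, 65 and 50. Bhmt, which remethylates homocysteine, had 0, 113 and 41 counts with mitochondria and 181, 19 and 103 in controls, a pattern unlike that of Alb outside mitochondria replicate 1. Summed, the 29 were at 0.198, 13.6 and 16.1 CPM with mitochondria and at 18.4, 20.1 and 22.3 CPM in controls. The 63 with no dip were at 3638, 4130 and 3656 CPM with mitochondria and 3594, 3625 and 3403 CPM in controls. The complement gene C3 was the most abundant of these, and the foetal albumin relative Afp, with 2494, 2200 and 2175 counts with mitochondria against 2313, 2420 and 2226 in controls, was among them.

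**Figure D4:**
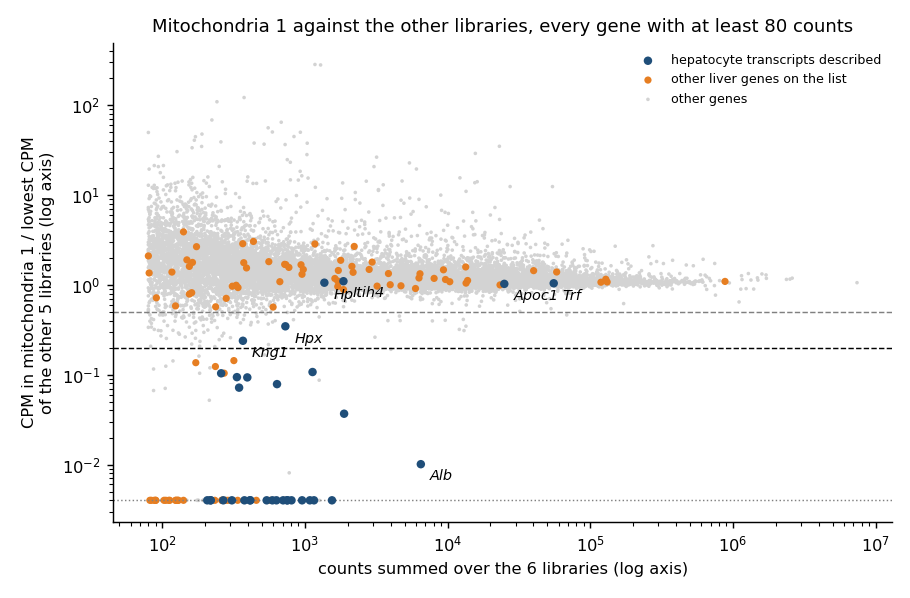
For each gene with at least 80 counts, CPM in mitochondria replicate 1 over the lowest CPM of the other 5 libraries (log axis) against its counts summed over the 6 libraries (log axis); genes at 0 in mitochondria replicate 1 are drawn on the dotted line. Dashed lines mark 0.2 and 0.5, and most members and 29 of the other liver genes lie under 0.2, apart from the mass of genes.

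The difference between cells with and without mitochondria was tested for these further liver genes with edgeR's quasi-likelihood test over all genes with a mean of at least 1 FPKM. Of 12774 genes 21, or 0.164%, were called at an adjusted p under 0.05, and with the replicate number as a block 0 were, with 2153 at an unadjusted p under 0.05. Of the liver list 33 were tested and 0 were called, by edgeR as by DESeq2 and limma, with 4 at an unadjusted p under 0.05 in edgeR and DESeq2 and 5 in limma. In edgeR these were 12.1% of the list, beside 1664 genes or 13% of all tested, and with the block 10 genes or 30.3% of the list, beside 16.9% of all tested. Their median log2 fold change was 0.12, beside -0.00156 for all genes tested. None of the 33 tested had the dip, because all 29 with it had a mean FPKM under 1. With no filter 146 were tested and 0 called by edgeR, with 14 at an unadjusted p under 0.05. Their median was then -0.49, beside 0.00131 for all genes. Of the members themselves 15 passed the filter, among them 10 of the 27 with the dip.

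Among the marker lists of other cell types, 1 gene had the dip, Stab1, a scavenger receptor of sinusoidal endothelium and macrophages, with 0, 32 and 43 counts with mitochondria and 24, 8 and 8 in controls. The list of other liver cell types, 13 genes with Stab1 among them, summed to 1.79, 2.99 and 2.92 CPM with mitochondria and 3.17, 1.86 and 2.94 CPM in controls, and 5 of the 13 were at 0 in all libraries. Of 15 enterocyte markers 6 reached 80 counts and all 6 had no dip. Of 28 pancreatic acinar genes with at least 80 counts, 22 could not be sorted because another library was also at 0, and 6 had no dip. As a sum, the 36 acinar genes listed differed between these libraries in another way. They were at 67.6, 67.1 and 61.9 CPM with mitochondria and at 236, 292 and 181 CPM in controls. Part of the list was thus present in all libraries. Ctrb1, chymotrypsinogen B, had 0, 0 and 0 counts with mitochondria and 1974, 3156 and 1493 in controls, so it was missing also from mitochondria replicates 2 and 3, which held 1314 and 832 counts of Alb. Where the hepatocyte transcripts came from was not tested. Of the 35 members 8 overlap another annotated gene, such as Apoh with Prkca and Plg with Slc22a3, and how the authors' counting treated strand is not given in the sources used here.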

How the data were processed

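One table was used, with FPKM values and estimated counts for 6 libraries. Cutadapt 1.9, HISAT2 2.2.1, StringTie 2.1.6, DESeq2, edgeR and build GRCm38 are named without roles, per the submitters' processing notes. The sources used here do not give the annotation release or strand setting. FPKM values, as deposited, are scaled to transcript length and library size, and a count of 0 is always listed at 0.0001. Such FPKM values were set to 0 in sums and ratios and kept for limma. The deposited estimated counts are whole numbers. Of those from 1 to 20, 36.6% are multiples of 4, and 32.5% in genes with a single transcript, against 25% if spread evenly. From this 4 counts per fragment and the floor of 12 counts were assumed; most low counts are not multiples of 4.

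Members and lists were chosen with earlier results of these data known. Groups came from the sample titles. CPM used TMM factors of 0.996 to 1.007. The test was edgeR 4.0.16 in R 4.3.3 (glmQLFit, glmQLFTest, TMM, mean FPKM of at least 1, Benjamini-Hochberg), checked on simulated counts, with limma 3.58.1 on log2(FPKM + 1) and DESeq2 1.42.0 as alternatives. Named beside the members were the 15 genes nearest to Alb, the 10 most abundant further liver genes with the dip and marker genes with it; 1 gene that this rule picks is not reported here. Same-numbered libraries deviated together across genes (correlations 0.139, 0.185 and 0.26), so the numbers were also fitted as a block. No label states this pairing. Intervals are Clopper-Pearson. Promoters are RefSeq, GRCm38.p6. Shared windows were counted in GENCODE M21 transcripts.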

Additional observations from a re-analysis of the deposited data

How the results depend on the processing

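The number of members with the dip, 27, stayed between 25 and 28 with FPKM, raw counts, thresholds of 0.1 or 0.33, a minimum of 200 counts, or without any 1 of the 5 libraries it is set against (27 to 28). It cannot be computed without mitochondria replicate 1. Of the 15 genes nearest to Alb, 11 were members or listed liver genes, 11 with FPKM, 8 with a minimum of 80 counts and 14 when the largest log2 difference of the shares was used. The summed CPM of the members without Trf, mitochondria over control, was 0.796, between 0.802 and 0.906 with unscaled CPM, FPKM or without Alb, and 0.633 to 0.973 without 1 library in turn. This sum keeps Apoc1, which had no dip. Apoc1 gave 54.2 of 62.5 CPM in mitochondria replicate 1, and a mean of 55.6 of 141.4 CPM in controls. For the members with the dip alone, chosen after seeing the data, the ratio of sums was 0.495, and 0.737 without mitochondria replicate 1. The number of liver list genes called was 0 in every setting tried. The number of all genes called, 21, was 8 at a mean FPKM of at least 5, 356 with DESeq2, 0 with the replicate block and 1 to 27 without 1 library in turn, namely 1 when control replicate 1 was left out, 12 when control replicate 3 was; the cause was not tested. The paired fit with the replicate block left the count of liver list genes called at 0. Members with fewer than 80 counts, Apoa4 here, could not be placed at this depth.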

Other observations

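Further genes with the dip were found outside the members and lists, and those named here were chosen after their values were seen. Of 52 genes with the dip and at least 200 counts, 27 were members, 13 were on the liver list and 12 were others. Of the 12, 10 have predicted or clone names. Pzp, a protease inhibitor of the alpha-2-macroglobulin family made in mouse liver, had 13, 88 and 73 counts with mitochondria and 141, 116 and 89 in controls. Mir8114 had 1, 122 and 142 counts against 178, 164 and 170. It overlaps the start of Glul on the same strand, and Glul had 2200, 2389 and 1884 counts with mitochondria and 2252, 2544 and 2003 in controls. With a minimum of 80 counts, 115 genes had the dip: 27 members, 29 on the liver list and 59 others. Of the 59, 35 have predicted or clone names and 24 do not, Fgf18, Armc3 and Elane among the 24. The few described here do not represent the 59. Between 80 and 200 counts the dip also took in Mug1, with 0, 32 and 10 counts against 90, 28 and 34, and Pon1, a plasma esterase, with 0, 12 and 35 against 29, 47 and 26. Apoa5, which lies near Apoa1 on chromosome 9, had 0, 40 and 23 counts with mitochondria and 17, 44 and 17 in controls. Kcnk3, a potassium channel gene, had the dip too, with 0, 18 and 45 counts against 35, 13 and 11. Mug1, at 10 counts in mitochondria replicate 3, and Kcnk3, at 11 in control replicate 3, were also under the floor of 12 counts there.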
